A study of Mus musculus with 12 samples.

Results

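The neurotransmitter receptor genes of the mouse were described in tongue-innervating sensory neurons of the trigeminal ganglion (TG), the cranial ganglion that carries touch, temperature and pain from the mouth. They were taken by symbol from the gene count tables, as every row that names a subunit of a GABA, glycine, glutamate, nicotinic, muscarinic or serotonin receptor (symbols beginning Gabr, Gabbr, Glra, Glrb, Gria, Grik, Grin, Grid, Grm, Chrn, Chrm or Htr, without 1 gene for an interacting protein), whatever its level. This gave 87 of 22609 genes in 11 families. The study asked how lingual neurons differ between males and females and how a tongue tumor changes them. There were 12 bulk RNA-seq libraries in 4 groups of 3: males without a tumor (male normal, MN), males with one (MT), females without (female normal, FN) and females with a tumor (FT), all from Balb/c athymic nude mice of 6 to 8 weeks, which lack mature T cells. Tumor mice received 350000 HSC3 cells, a human oral squamous cell carcinoma line, in the tongue. The normal mice received no cells by the labels, while the study's methods name normal human keratinocytes for them. All mice then received the retrograde tracer WGA-488 in the tongue on day 13, as a 0.5% solution by the labels and 1% by the methods. On day 15 fluorescent cells were sorted from dissociated ganglia. Each library pooled 4 ganglia, from 2 normal mice or from the tumor side of 4 tumor mice. In the tumor comparisons the tumor thus cannot be told apart from ganglion side or mice per pool. The tumor groups rest on 1 cell line in a T-cell-deficient host, and a library is a pool of animals, so spread between animals was not measured.

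Neurotransmitter receptors are either ligand-gated channels, built from several subunits around a pore, or G-protein-coupled receptors that act more slowly through second messengers. Sensory neurons release glutamate from their central endings, and the receptors on those endings are known to tune that release: GABA-A channels depolarize them because these cells hold much chloride, GABA-B and group III metabotropic glutamate receptors lower calcium entry, and kainate receptors act as glutamate autoreceptors. Nicotinic and serotonin-gated channels and certain serotonin-coupled receptors are also carried by nociceptors, and receptors on TG neurons are targets of migraine drugs.

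Values are given as CPM (a gene's reads per 1000000 reads on genes) within a gene, and as RPKM (CPM per kilobase of combined exon length) between genes, in the order of replicates 1, 2 and 3. The libraries held 4592891 to 8922011 reads on genes. FN replicate 2, FT replicate 2 and FT replicate 3 stood apart. Their highest Spearman rho with any of the other 9 libraries over all genes tested was 0.850, 0.811 and 0.908, against at least 0.971 between any pair of those 9, and 56.0, 68.4 and 52.6% of the entries in their count tables were alignments that were not unique, against 43.0 to 45.5%. A read placed several times can be entered more than once in that row. Results are therefore given with and without these 3. Xist was at 96.5 to 234 CPM in the 6 female libraries and at most 0.422 CPM in the 6 male ones, and Ddx3y was at 48.0 to 68.0 CPM in males and at most 0.274 CPM in females, as the labels state. The summed level of 15 sensory neuron markers was 21838 to 27197 CPM in the other 9 libraries and 29210, 18086 and 29851 CPM in the 3 that stood apart. The markers split in these: 5 of the 15 (Avil, Trpv1, Pirt, Scn10a and Snap25) were below the 9 in all 3, and 6 (Tubb3, Prph, Calca, Isl1, Pou4f1 and Uchl1) were above the 9 in FN replicate 2 and FT replicate 3. The 8 satellite glia markers summed to 4153 to 4971 CPM in MN, 3539 to 4955 in MT, 8174 to 16454 in FN and 6616 to 17930 in FT. The 10 macrophage markers summed to 22.5 to 35.2 CPM in MN, 17.7 to 221 in MT, 160 to 368 in FN and 138 to 447 in FT, with Cx3cr1 at 0 in MT replicate 1 and Ptprc at 0 in MT replicate 1 and FN replicate 2. Fewer cells of a type and less RNA per cell cannot be told apart in such bulk samples.

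Of the 87 receptor genes, 45 were over 3 counts in all 12 libraries, 23 in some of them and 19 in none. A count of 3 corresponds to 0.336 to 0.653 CPM, depending on the library, and a gene under it was not detectable at this depth. A filter on low counts over all libraries passed 58 of the 87, against 13835 of all 22609 genes, and these 58 were tested. The AMPA, kainate and GABA-B families passed whole. Among the others, the glycine receptor was represented by 1 of 5 genes, NMDA receptors by 4 of 7, muscarinic receptors by 2 of 5 and nicotinic receptors by 10 of 16. GABA-A channels were represented by 11 of 19, metabotropic glutamate receptors by 6 of 8 and serotonin receptors by 11 of 14. The 19 genes never over 3 counts were Gabrr3, Gabrg3, Gabra6, Gabrp, Gabrq, Grin2b, Grin2c, Glra1, Glra3, Glra4, Grm6, Chrm5, Chrna2, Chrna5, Chrna9, Chrnd, Chrne, Chrng and Htr2c. Of these, Gabra6, Gabrq, Glra3 and Chrnd had no count in any library. Another 10 were over 3 counts in some libraries and did not pass the filter, among them Gabrr1, Gabrr2, Gabre, Grin2a, Glra2, Chrm1, Chrm3, Htr2b and Htr6.

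Levels differed widely between families. The highest gene in MN was Htr3a, the pore-forming serotonin-gated channel subunit, at 160.1 ± 10.5 RPKM (SD, n = 3). Next came the kainate receptor subunit Grik1 at 111 ± 10.8 RPKM and then the glycine receptor beta subunit Glrb at 76.7 ± 4.19 RPKM and the GABA-A alpha subunit Gabra2 at 74.2 ± 2.90 RPKM, which differed by less than their SD. The nicotinic subunits Chrnb2 at 32.4 ± 2.19 RPKM and Chrna6 at 26.3 ± 1.14 RPKM followed. Among the next were the GABA-B subunit Gabbr1 at 19.9 ± 0.911 RPKM, the glutamate receptor Grm7 at 18.2 ± 1.27 RPKM and the NMDA subunit Grin1 at 18.2 ± 2.47 RPKM in this order, and Grm7 and Grin1 differed by less than their SD. A single member carried most of the summed MN RPKM in several families: Glrb 99.9% of the glycine receptor sum, Grin1 90.4% of NMDA, Grik1 89.2% of kainate, Htr3a 77.3% of serotonin, Gabbr1 75.3% of GABA-B, Grm7 60.3% of metabotropic glutamate receptors and Gabra2 52.5% of GABA-A channels. No member held most of the muscarinic, AMPA or nicotinic sums, where Chrm4 had 45.5%, Gria4 44.0% and Chrnb2 39.0%.

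**Figure D1:**
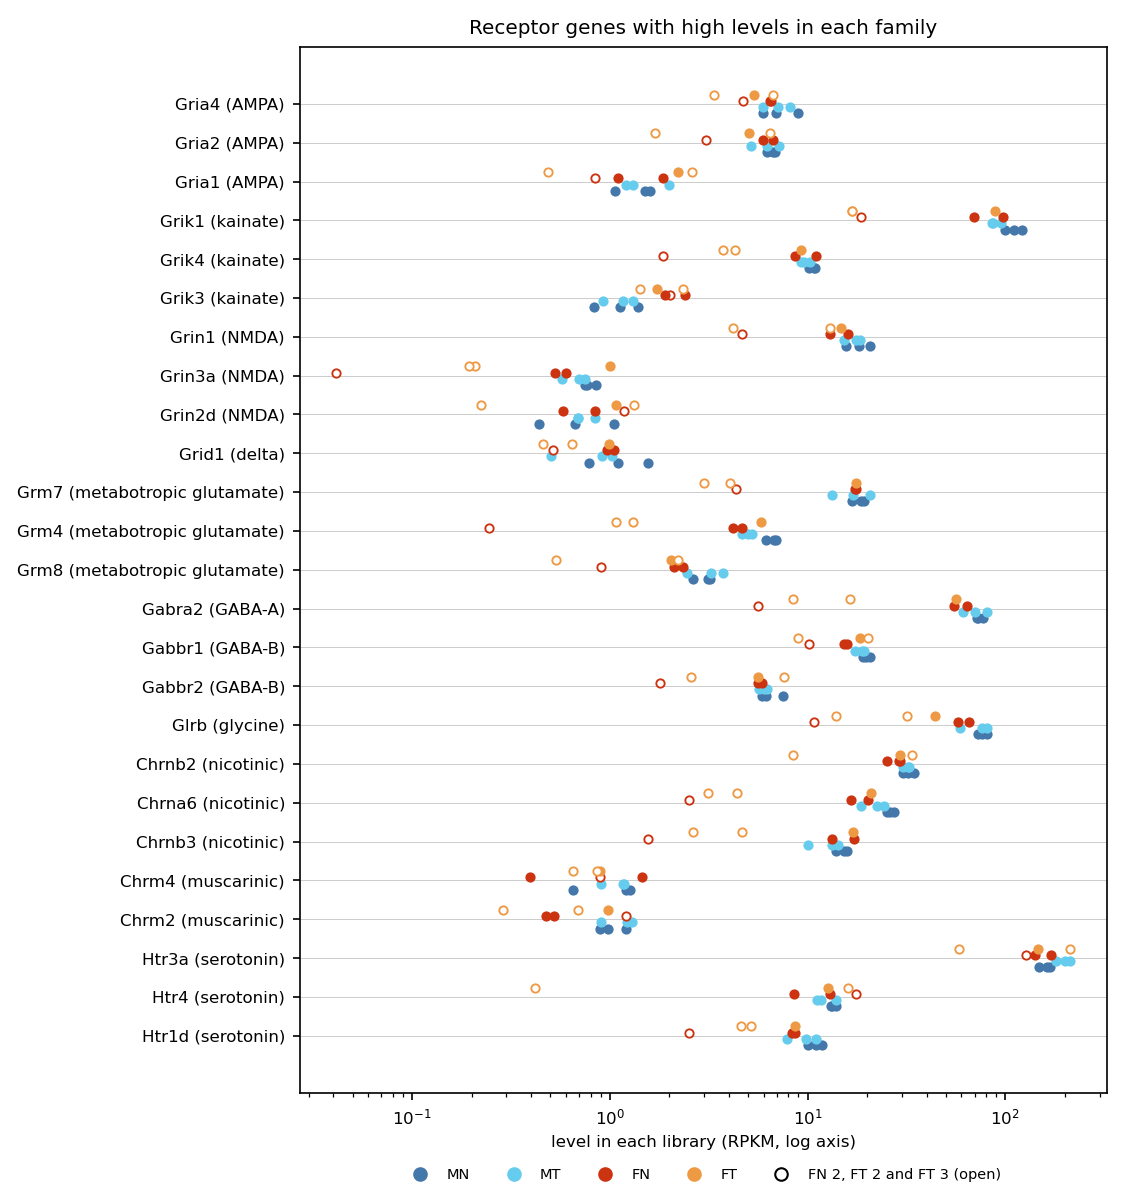
RPKM on a log axis of receptor genes among the 3 highest of each family that passed the low-count filter, 1 point per library, coloured by group; FN replicate 2, FT replicate 2 and FT replicate 3 are open. Htr3a and Grik1 lie farthest right, and the open points of Gabra2, Grik1, Grm4 and Chrna6 lie to the left of all filled points of the same gene.

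Among ionotropic glutamate receptors, the AMPA subunits, which carry fast excitatory currents, were at modest levels, with group means in MN of 7.27 RPKM for Gria4, 6.62 RPKM for Gria2, 1.39 RPKM for Gria1 and 1.27 RPKM for Gria3. Gria4 was at 37.5, 43.3 and 56.0 CPM in MN, 37.5, 51.1 and 44.4 in MT, 41.1, 29.7 and 40.4 in FN and 33.7, 41.8 and 21.2 in FT. Gria2, the subunit that makes AMPA channels nearly impermeable to calcium, was at 47.8, 46.7 and 43.6 CPM in MN, 36.0, 43.6 and 49.8 in MT, 41.5, 21.3 and 46.4 in FN and 35.1, 45.1 and 11.7 in FT. Gria1 was at 9.70, 6.39 and 9.07 CPM in MN, 7.29, 7.92 and 12.0 in MT, 6.66, 5.09 and 11.2 in FN and 13.4, 15.7 and 2.93 in FT. The groups of all 3 genes overlapped in every comparison, and FT replicate 3 was the lowest library for each. The X-linked Gria3 ranged from 8.61 to 16.8 CPM.

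Kainate subunits were dominated by Grik1, on chr16:87896441-88289947 (mm9, minus strand, as are the gene coordinates below unless stated). Grik1 was at 369, 406 and 334 CPM in MN, 288, 284 and 316 in MT, 326, 61.8 and 233 in FN and 297, 56.0 and 55.8 in FT. All 3 MT libraries were below all 3 MN libraries, and the 3 libraries that stood apart were below all others. Grik4, a high-affinity subunit that needs a partner such as Grik1 to form channels, was at 63.8, 64.2 and 60.5 CPM in MN, 60.7, 54.6 and 56.7 in MT, 51.3, 10.96 and 65.1 in FN and 54.6, 25.5 and 22.2 in FT, and it varied least of the tested receptor genes over the other 9 libraries, with a coefficient of variation of 8.39%. Grik3 (plus strand, chr4:125167944-125391417) forms channels of its own and was at 7.45, 10.1 and 12.5 CPM in MN, 8.30, 10.4 and 11.7 in MT, 21.5, 18.0 and 17.1 in FN and 15.5, 21.1 and 12.7 in FT. Unlike Grik1 and Grik4, Grik3 was above all 3 MN and all 3 MT libraries in every female library, those that stood apart included. Grik2 and Grik5 averaged 0.701 RPKM and 1.04 RPKM in MN, with library ranges of 1.17 to 12.3 and 3.29 to 24.4 CPM, the highest Grik5 values being those of FN replicate 2 and FT replicate 2.

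NMDA receptors need the glycine-binding subunit Grin1 with a Grin2 or Grin3 partner. Grin1 was at 153, 201 and 176 CPM in MN, 170.0, 179.8 and 149 in MT, 126, 45.0 and 156 in FN and 144, 125 and 40.9 in FT. Its mean in MN was 18.2 RPKM, against 0.790 RPKM for Grin3a, 0.720 RPKM for Grin2d and 0.361 RPKM for Grin3b. Grin3a, which reduces calcium permeability, was at 12.1, 11.9 and 13.4 CPM in MN, 9.06, 11.8 and 10.99 in MT, 8.30, 0.652 and 9.45 in FN and 15.8, 3.27 and 3.07 in FT. Grin2d was at 6.19, 2.58 and 3.90 CPM in MN, 4.02, 4.03 and 4.94 in MT, 3.39, 6.92 and 4.93 in FN and 6.31, 1.31 and 7.81 in FT. Grin3b was at 0.844, 1.23 and 1.49 CPM in MN, 0.252, 1.39 and 0.494 in MT, 1.26, 0.913 and 0.822 in FN and 0.960, 9.14 and 1.95 in FT, so that a single library, FT replicate 2, stood above the rest. Grin2a was over 3 counts in 1 library and Grin2b and Grin2c in none. The exons of Grin1 overlap those of E130003G02Rik over 13.5% of their length and the exons of Grin3b those of ORF61 over 32.1%, both on the opposite strand. Since the libraries keep no strand, reads in these stretches cannot be assigned with certainty. Of the delta receptors, which act mainly as synaptic adhesion partners, Grid1 was at 4.78, 6.72 and 9.52 CPM in MN, 5.53, 6.25 and 3.09 in MT, 6.41, 3.13 and 5.89 in FN and 6.04, 3.92 and 2.79 in FT. It was lowest in FT replicate 3 and highest in MN replicate 3.

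Metabotropic glutamate receptors were led by the group III members, which couple to inhibitory G proteins at nerve endings. Grm7 was at 109, 99.1 and 114 CPM in MN, 78.6, 99.6 and 122 in MT, 102, 25.7 and 103 in FN and 103, 23.7 and 17.7 in FT. Grm4 (chr17:27559332-27650286) was at 32.8, 36.2 and 37.0 CPM in MN, 24.8, 27.8 and 26.5 in MT, 22.4, 1.30 and 24.8 in FN and 31.0, 6.97 and 5.72 in FT. Grm8 was at 20.7, 24.5 and 25.2 CPM in MN, 29.2, 25.6 and 19.4 in MT, 16.6, 7.05 and 18.4 in FN and 16.0, 17.4 and 4.18 in FT. The 3 genes differed in pattern, since the MN and MT libraries overlapped for Grm7 and Grm8 but not for Grm4, which was higher in MN. In MN they averaged 18.2 RPKM, 6.64 RPKM and 2.99 RPKM, while Grm2 and Grm3 of group II averaged 1.75 RPKM and 0.396 RPKM. Grm2 ranged over 1.53 to 8.26 CPM and Grm3 over 0.418 to 2.69 CPM. In group I, which couples to phospholipase C, Grm5 was at 0.261 to 6.31 CPM.

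GABA-A channels are pentamers, most often of alpha, beta and gamma subunits. Gabra2 (chr5:71352296-71487088) was at 175, 185 and 172 CPM in MN, 194, 169 and 146 in MT, 153, 13.4 and 132 in FN and 135, 20.2 and 39.5 in FT. MN and MT overlapped, all FN libraries were below all MN libraries, and the 3 libraries that stood apart were far below the rest. Gabra5 was at 19.0, 30.0 and 27.5 CPM in MN, 49.6, 35.8 and 18.8 in MT, 25.4, 13.8 and 19.7 in FN and 21.0, 12.2 and 10.2 in FT, with the highest value in MT replicate 1. Of the beta subunits, Gabrb2 averaged 1.60 RPKM in MN and Gabrb1 0.789 RPKM, with library ranges of 6.45 to 25.0 and 0 to 4.18 CPM. Gabrd, a subunit of extrasynaptic channels, was at 2.81, 2.35 and 2.98 CPM in MN, 1.76, 2.64 and 2.10 in MT, 1.76, 2.09 and 2.47 in FN and 5.21, 4.14 and 5.996 in FT, so that all 3 FT libraries were above the 9 libraries of the other groups. Gabrg1 was at 7.04 to 26.6 and Gabra4 at 0.391 to 3.61 CPM. The X-linked Gabra3 ranged from 0.783 to 25.9 CPM.

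Both GABA-B subunits, which form an obligate pair coupled to inhibitory G proteins, were well detected. Gabbr1 (plus strand, chr17:37182911-37212012) was at 148, 162 and 154 CPM in MN, 148, 135 and 151 in MT, 123, 78.9 and 119 in FN and 144, 157 and 69.4 in FT. Gabbr2 was at 43.7, 34.3 and 36.1 CPM in MN, 36.3, 35.4 and 33.3 in MT, 34.3, 10.4 and 32.9 in FN and 32.9, 44.6 and 15.1 in FT. All FN libraries were below all MN libraries for Gabbr1, while for Gabbr2 FN and MN overlapped. Glycine receptors are formed by alpha subunits, which can act alone, with the beta subunit Glrb, which binds the scaffold gephyrin. Glrb (chr3:80647521-80717582) was at 242, 269.7 and 256 CPM in MN, 269, 254 and 198 in MT, 219.7, 36.1 and 192 in FN and 147, 106 and 46.6 in FT. None of Glra1, Glra2, Glra3 and Glra4 passed the filter, the highest value among them being 1.76 CPM for Glra2 in FN replicate 1.

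Nicotinic receptors were led by Chrnb2, the common neuronal beta subunit, at 173, 187 and 164 CPM in MN, 173, 175 and 163 in MT, 136, 156 and 158 in FN and 159, 45.5 and 182 in FT. It was kept in FN replicate 2 and FT replicate 3 and was low in FT replicate 2. Chrna6 (chr8:28513686-28524416), an alpha subunit associated in mice with relief of touch hypersensitivity, was at 76.1, 79.7 and 73.1 CPM in MN, 54.0, 65.2 and 70.7 in MT, 48.3, 7.31 and 59.0 in FN and 61.0, 12.8 and 9.06 in FT. Its neighbour Chrnb3, an accessory subunit of the same receptors, was at 70.2, 72.5 and 63.6 CPM in MN, 46.2, 61.3 and 65.7 in MT, 60.8, 7.18 and 78.5 in FN and 78.2, 21.3 and 12.1 in FT. Chrna4 (chr2:180753085-180778251), the usual brain partner of Chrnb2, was at 2.25, 4.93 and 2.52 CPM in MN, 4.40, 12.2 and 10.2 in MT, 8.80, 0.130 and 4.93 in FN and 6.17, 8.93 and 2.23 in FT, the most variable receptor gene over the 9 libraries other than the 3 that stood apart, with a coefficient of variation of 54.9%. Chrna7, which forms homomeric channels, was at 0.218 to 18.3 CPM and Chrna3 and Chrnb4, the ganglionic pair, at 1.17 to 10.7 and 1.30 to 8.17 CPM. The muscle-type subunits Chrna1 and Chrnb1 were at 0.123 to 6.75 and 2.40 to 6.17 CPM and Chrna10 at 0 to 2.35 CPM. Muscarinic receptors were low: Chrm4, coupled to inhibitory G proteins, was at 3.52, 1.79 and 3.33 CPM in MN, 3.27, 2.50 and 3.21 in MT, 4.02, 2.48 and 1.10 in FN and 2.47, 2.40 and 1.81 in FT. Chrm2, of the same coupling, was at 7.31, 5.94 and 5.39 CPM in MN, 7.80, 7.36 and 5.43 in MT, 2.89, 7.31 and 3.15 in FN and 5.90, 1.74 and 4.18 in FT.

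Among serotonin receptors, the channel subunit Htr3a (chr9:48707319-48719204) was at 309, 351 and 339 CPM in MN, 420.0, 444 and 377 in MT, 295, 265 and 355 in FN and 305, 121 and 444 in FT. All MT libraries were above all MN libraries, and FT replicate 3 was level with the highest MT library while FT replicate 2 was the lowest of all. Its partner Htr3b was at 4.04 to 15.6 CPM. Htr4, which raises cyclic AMP, was at 64.8, 62.0 and 61.3 CPM in MN, 64.6, 52.1 and 54.2 in MT, 60.5, 81.7 and 39.7 in FN and 59.4, 1.96 and 75.0 in FT, so that the gene was kept or high in FN replicate 2 and FT replicate 3 and nearly missing in FT replicate 2. Htr1d, an inhibitory receptor on trigeminal endings and a target of triptans, was at 32.2, 38.1 and 35.5 CPM in MN, 35.3, 31.5 and 25.3 in MT, 27.5, 8.09 and 26.6 in FN and 27.7, 16.5 and 14.8 in FT. Htr1f, the target of the ditans, was at 5.34, 3.25 and 4.59 CPM in MN, 2.26, 2.92 and 4.44 in MT, 4.15, 1.70 and 2.05 in FN and 3.29, 16.3 and 4.60 in FT, again with FT replicate 2 above the rest. The other triptan target, Htr1b, was at 1.67 to 13.9 CPM, and 66.9% of its exon length overlaps the opposite-strand gene D430036J16Rik. Of the remaining tested members Htr1a was at 0.652 to 21.3, Htr7 at 1.83 to 9.75, Htr5a at 0.130 to 5.34, Htr5b at 0.218 to 3.94 and Htr2a at 0 to 4.02 CPM.

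In the genome, 29 of the 87 genes lay in 11 clusters in which neighbours were within 1000000 bases of each other. Clusters were not uniform in expression. All 4 genes of the cluster Gabrg1, Gabra2, Gabra4 and Gabrb1 on chromosome 5 (mm9 71142286 to 72529628) passed the filter, yet Gabra2 reached 74.2 ± 2.90 RPKM in MN and Gabra4 0.556 ± 0.119 RPKM. On chromosome 8 (28479183 to 28524416), Chrnb3 and Chrna6 both passed, at 15.0 ± 1.01 RPKM and 26.3 ± 1.14 RPKM. On chromosome 9 (54828687 to 54896351), Chrna3 and Chrnb4 passed and Chrna5 did not, and at 48707319 to 48773095 of the same chromosome Htr3a and Htr3b passed.

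Promoter sequences from RefSeq (GRCm38.p6, 250 bases before to 50 after the start) were available for 63 of the 87 genes. The GC box, GGGCGG (read as CCGCCC on the other strand), was present in 25 of 41 promoters of receptor genes that passed the filter (61.0%) and in 8 of 22 of those that did not (36.4%), against 64.4% of all 9791 promoters of tested genes and 35.9% of all 27025 promoters. The median number of CG dinucleotides was 14 and 5 in the 2 receptor sets, 21 over tested genes and 7 over all. The TATA word TATAAA, searched on both strands like all words here, was in 9.76% of receptor promoters that passed, 4.55% of those that did not, 7.10% of tested genes and 14.2% of all. The homeodomain core TAATTA was in 7.32, 4.55, 2.31 and 5.31% of the same sets. The E-box CAGCTG was in 7.32, 27.3, 15.3 and 16.1%. A promoter was counted once for each word. The 4 promoters below belong to genes that the comparisons turn on, the dominant GABA-A and GABA-B subunits, the kainate subunit that was higher in female libraries and the nicotinic subunit with the largest MT versus MN difference, and the capitals mark each GC box. The promoters lie at chr5:71095800-71096099 (minus strand), chr17:37045716-37046015 (plus), chr4:125490446-125490745 (plus) and chr2:181039128-181039427 (minus) of GRCm38.p6 and are written 5′ to 3′ on the strand of the gene.
Gabra2: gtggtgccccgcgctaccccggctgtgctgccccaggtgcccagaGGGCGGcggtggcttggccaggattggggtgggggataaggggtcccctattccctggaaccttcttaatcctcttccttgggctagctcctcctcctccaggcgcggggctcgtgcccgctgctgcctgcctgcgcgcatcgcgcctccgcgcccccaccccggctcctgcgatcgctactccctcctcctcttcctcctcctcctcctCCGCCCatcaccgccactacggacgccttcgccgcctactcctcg
Gabbr1: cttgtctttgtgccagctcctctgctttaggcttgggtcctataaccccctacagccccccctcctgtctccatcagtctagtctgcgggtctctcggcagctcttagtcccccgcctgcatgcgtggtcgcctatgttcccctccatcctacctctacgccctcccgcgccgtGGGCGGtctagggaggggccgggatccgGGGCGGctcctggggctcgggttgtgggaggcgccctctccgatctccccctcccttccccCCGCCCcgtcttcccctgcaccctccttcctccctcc
Grik3: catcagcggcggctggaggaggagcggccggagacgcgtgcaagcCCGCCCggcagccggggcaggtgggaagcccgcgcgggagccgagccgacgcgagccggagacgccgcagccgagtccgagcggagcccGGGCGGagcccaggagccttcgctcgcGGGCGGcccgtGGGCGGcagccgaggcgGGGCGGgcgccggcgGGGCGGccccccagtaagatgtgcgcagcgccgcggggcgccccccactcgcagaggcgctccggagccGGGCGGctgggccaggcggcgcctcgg
Chrna4: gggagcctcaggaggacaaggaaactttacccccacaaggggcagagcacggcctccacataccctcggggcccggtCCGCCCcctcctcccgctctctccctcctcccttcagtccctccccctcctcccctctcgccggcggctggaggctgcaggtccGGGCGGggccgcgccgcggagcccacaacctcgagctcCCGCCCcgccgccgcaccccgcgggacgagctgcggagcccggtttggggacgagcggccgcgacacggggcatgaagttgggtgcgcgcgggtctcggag
These held 2, 3, 7 and 3 GC boxes, and none of the 4 held the TATA word, the homeodomain core or the E-box on either strand.

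The 3 libraries that stood apart differed from the other 9 over most genes, and the receptor genes moved with that difference. In FN replicate 2, 40 of the 58 tested receptor genes (69.0%) were below all 9 other libraries, against 49.9% of all 13835 genes tested, and 3 (Grik5, Grin2d and Htr4) were above all 9, against 28% of all genes. In FT replicate 2, 31 were below all 9 (53.4%, against 53.1% of all genes) and 10 above (26.4% of all genes), among them Grin3b, Htr1f, Htr1b, Grik5 and Grm5. In FT replicate 3, 35 were below (60.3%, against 41.2%) and 5 above (30.1% of all genes), which were Gabrb1, Gabrd, Grin2d, Grin3b and Htr4. The median ratio of a receptor gene to its median in the 9 was 0.440, 0.537 and 0.457 in the 3 libraries, against 0.698, 0.663 and 0.851 over all genes. All 3 libraries were below the 9 for 19 receptor genes (32.8%, against 25.8% of all genes), among them Grik1, Grik4, Grin1, Grm4, Grm7, Gabra2, Glrb, Chrna6, Chrnb3, Chrna7, Htr1a and Htr1d. No receptor gene was above the 9 in all 3, against 1272 of all 13835 genes. The summed satellite glia markers were 16454, 7870 and 17930 CPM in these libraries, and their part in the lower receptor levels was not tested.

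**Figure D2:**
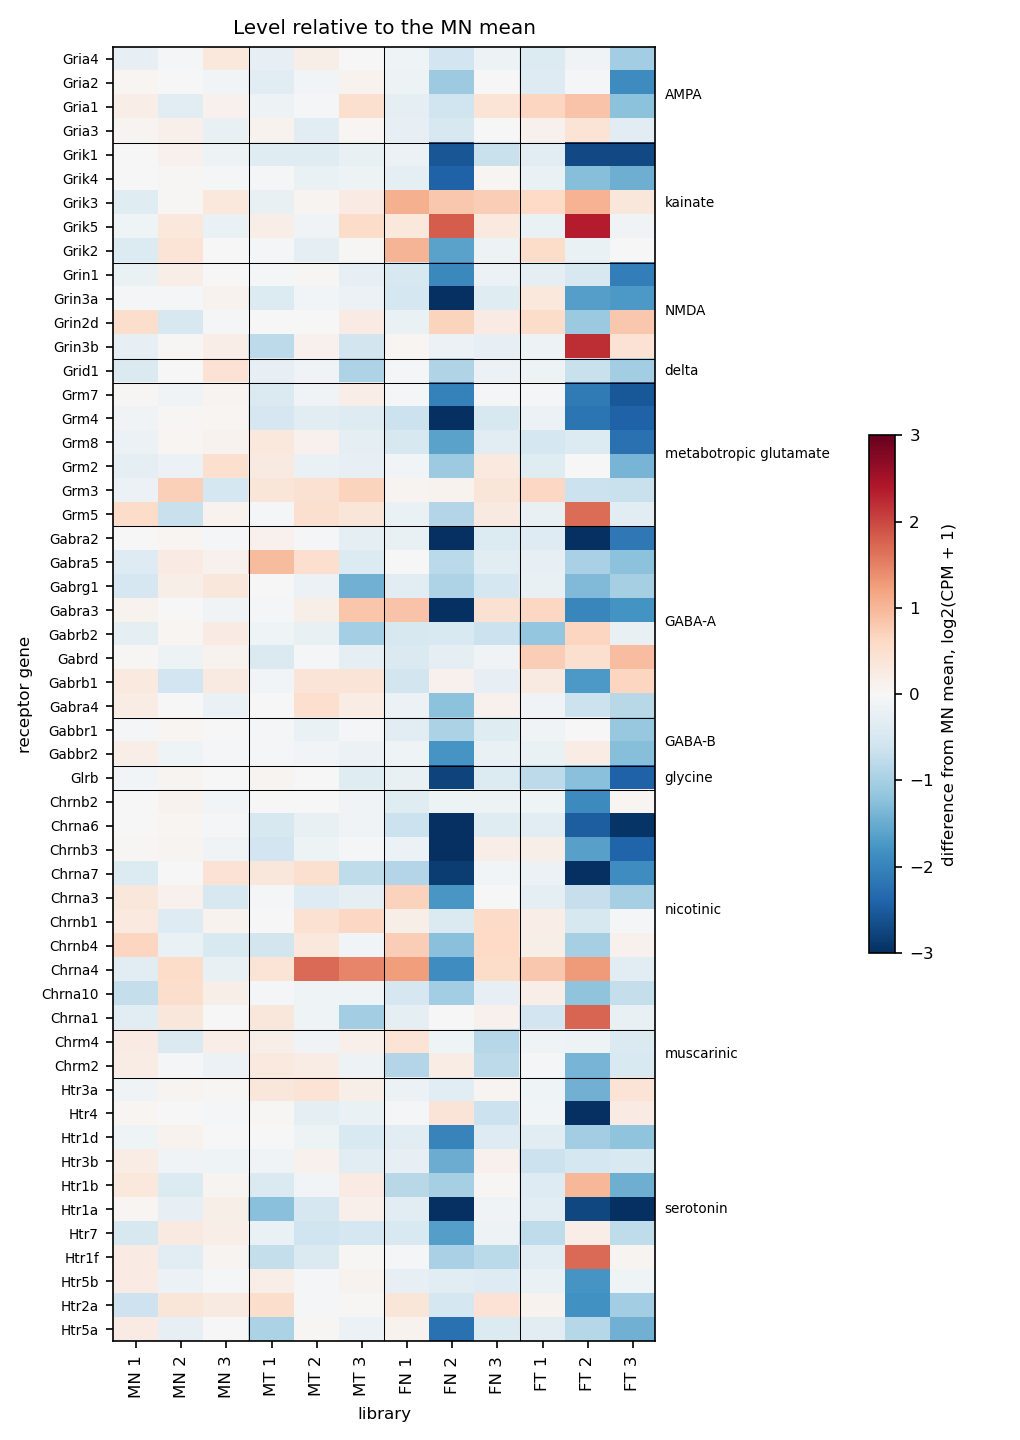
The tested receptor genes that are reported here, 54 of 58 (rows, by family), in the 12 libraries (columns), as the difference of log2(CPM + 1) from the mean of the 3 MN libraries; colours end at -3 and 3. The columns of FN 2, FT 2 and FT 3 are mostly blue, while Grik3 is red in all female libraries and Gabrd in the 3 FT libraries.

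The effect of the tumor in males was tested between MT and MN, which hold none of the 3 libraries that stood apart. No receptor gene passed an adjusted p of 0.05 with edgeR's quasi-likelihood test, nor with DESeq2 or limma-voom, while 6 of all 13835 genes did with edgeR (0.0434%). At an unadjusted p under 0.05 there were 5 of 58 receptor genes (8.62%), against 6.79% of all genes, so their share was near the background. Chrna4, the nicotinic subunit, had the largest difference, a log2 fold change of 1.45 (SE 0.42, edgeR adjusted p = 0.464), with MT replicate 1 inside the range of MN. Htr3a was 0.33 higher on the log2 scale (SE 0.10, edgeR adjusted p = 0.566). On the lower side were Grm4 with -0.41 (SE 0.12, edgeR adjusted p = 0.514), Grik1 with -0.31 (SE 0.10, adjusted p = 0.574) and Chrna6 with -0.26 (SE 0.11, adjusted p = 0.722). MT and MN did not overlap for Htr3a, which was higher in MT, and for Grm4, Grik1, Chrna6 and Grin3a, which were lower, 5 of 58 against 13.1% of all genes. The median log2 fold change of the receptor genes was -0.09, with 67.2% of them below 0, against a median of 0.00 and 49.1% over all genes. With a spread shared by the 9 libraries other than the 3 apart, 4 receptor genes had an unadjusted p under 0.05, against 7.37% of all genes: Grm4, Grik1, Htr3a and Chrna4.

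The difference between the sexes in normal mice was tested between FN and MN, without genes on X and Y, which left 56 receptor genes. With all 6 libraries no gene of the table passed (0%) by edgeR, and no receptor gene passed by DESeq2, which called 62 genes. By edgeR 1 receptor gene, Grik3, had an unadjusted p under 0.05, against 5.93% of all genes. Grik3 was higher in FN by 1.02 on the log2 scale (SE 0.30, edgeR adjusted p = 0.634). The groups did not overlap for 15 of the 56 (26.8%), against 19.8% of all genes. Of these Grik3 alone was higher in FN, and the lower ones included Grm4, Grm8, Grik1, Grin3a, Gabra2, Gabrb2, Gabbr1, Glrb, Chrna6, Chrnb2, Htr1d and Htr5b. The median log2 fold change of the receptor genes was -0.40 with 80.4% of them below 0, against 0.07 and 46.1% over all genes.

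FN replicate 2 decided this comparison. Without it, 4 of the 56 receptor genes (7.14%) passed an adjusted p of 0.05 by edgeR, a share near the 5.5% of all genes that did. Grm4 was lower in FN (-0.64, SE 0.14, edgeR adjusted p = 0.0217, and 0.0217 to 0.982 over all alternatives). Chrna6 was lower too (-0.56, SE 0.12, edgeR adjusted p = 0.0200, range 0.0146 to 0.999), as was Gabbr1 (-0.40, SE 0.10, adjusted p = 0.0353, range 0.0353 to 0.932). Grik3 was higher (0.89, SE 0.23, edgeR adjusted p = 0.0402, range 0.0105 to 0.888). With all 6 libraries the 3 lower genes each had an adjusted p of 0.634 by edgeR. limma-voom with sample weights, which gives a deviating library less say, called these 4 and Chrm2 from all 6 libraries. These were 5 of 56 receptor genes, against 963 of all 13360 genes. At an unadjusted p under 0.05, 18 of 56 (32.1%) had a difference without FN replicate 2, against 20.2% of all genes. Of these 16 were lower in FN (28.6%, against 9.02% of all genes that were lower), 2 or more from each of the GABA-A, metabotropic glutamate, nicotinic, NMDA and serotonin families, among them Gabra2, Gabrb2, Gabrg1, Gabbr1, Glrb, Grik1, Grin1, Grin3a, Grm4, Grm8, Chrna6, Chrnb2, Chrm2, Htr1d and Htr4. The 2 higher in FN were Grik3 and Chrna4. The median log2 fold change of the receptor genes was then -0.25 with 78.6% below 0, against 0.00 and 50.1% over all genes. In a fit of the 9 libraries other than the 3 apart, 15 of 56 (26.8%) had an unadjusted p under 0.05, against 15.5% of all genes, and none passed the adjustment. Of these 14 were lower in FN (25.0%), against 892 of all 13360 genes that were lower. FN replicates 1 and 3, which carry these differences, also had summed satellite glia markers of 8241 and 8174 CPM against 4153 to 4971 in MN, and the part of these cells in the lower receptor levels was not tested.

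**Figure D3:**
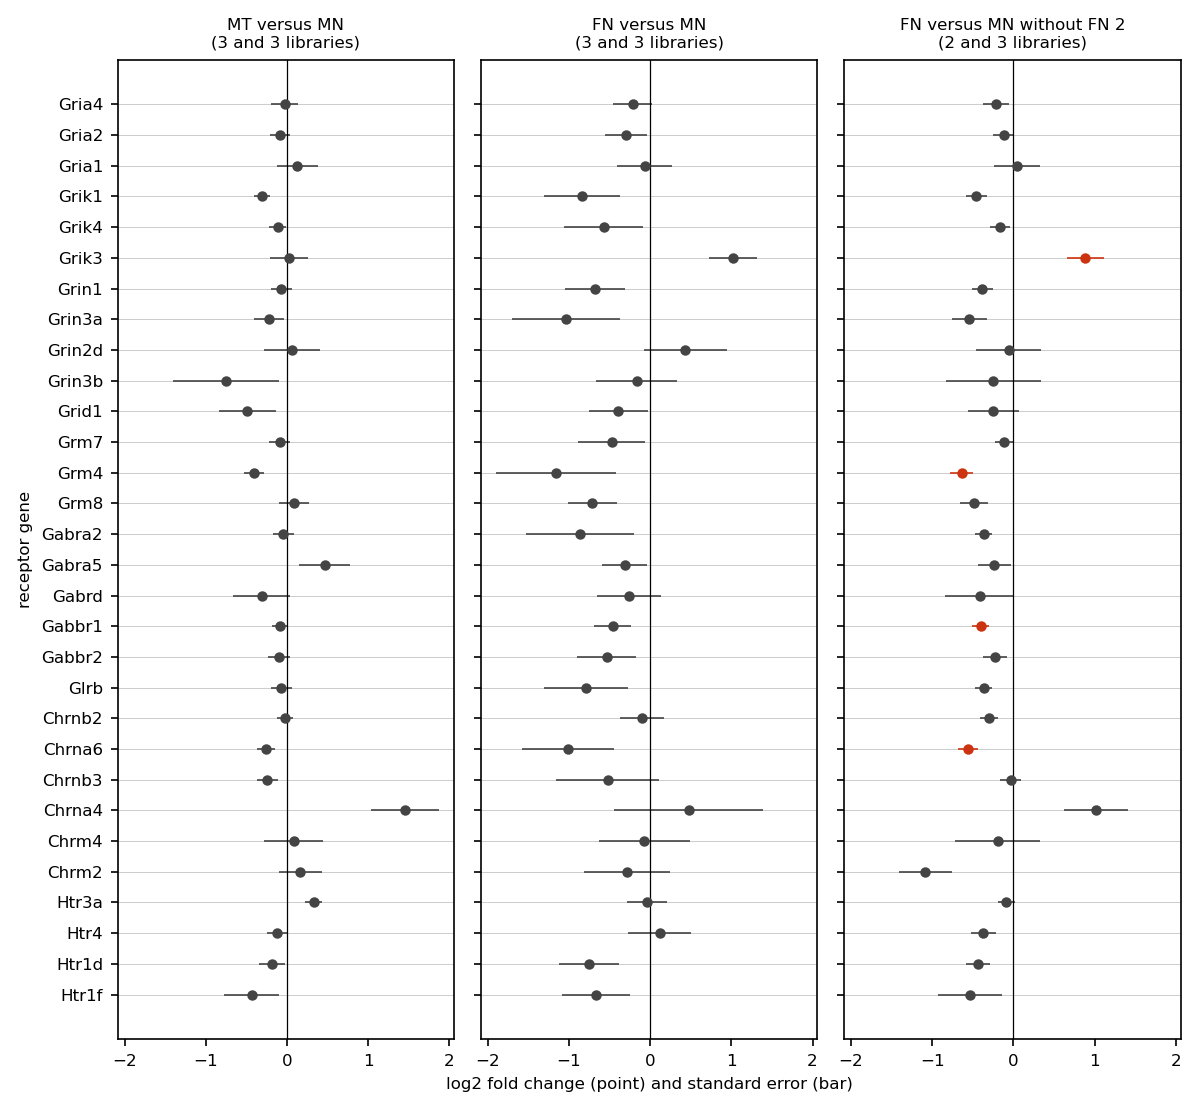
Log2 fold changes (points) with their standard errors (bars) of the named receptor genes from edgeR, for MT versus MN, for FN versus MN with all libraries and for FN versus MN without FN replicate 2; red points have an adjusted p under 0.05. Most bars of FN versus MN shorten without FN 2, where Grik3 lies above 0 and Grm4, Gabbr1 and Chrna6 below.

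The effect of the tumor in females was tested between FT and FN, which hold all 3 libraries that stood apart. No gene of the table passed (0%) with edgeR, and no receptor gene passed with edgeR, DESeq2 or limma-voom. An unadjusted p under 0.05 was given to 2 of 58 receptor genes (3.45%), against 1.3% of all genes. Grin3b was 2.18 higher on the log2 scale (SE 0.96, edgeR adjusted p = 1.00) and Htr1f 1.83 (SE 0.80, edgeR adjusted p = 1.00). FT replicate 2 was the highest library for both. Without it alone the log2 fold changes were 0.53 for Grin3b and 0.60 for Htr1f, and in the 9 libraries Grin3b had a log2 fold change of -0.11 and Htr1f of 0.08. FT and FN did not overlap for 1 receptor gene, Gabrd, against 2.49% of all genes, at a log2 fold change of 1.37 (SE 0.68, edgeR adjusted p = 1.00) and 1.31 in the 9 libraries. In those 9, where FT has a single library whose spread is taken from the other groups, 6 receptor genes had an unadjusted p under 0.05, against 4.73% of all genes, among them Gabrd, Chrm2, Grin3a and Grm4, higher in FT, and Glrb, lower.

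The difference between the sexes in tumor-bearing mice was tested between FT and MT over the same 56 genes. No gene of the table passed (0%) with edgeR, and DESeq2 and limma-voom, which called 194 and 3 genes, called no receptor gene. An unadjusted p under 0.05 was given to 6 of 56 (10.7%), against 9.58% of all genes. Grin3b and Gabrd were higher in FT, at log2 fold changes of 2.77 (SE 1.04) and 1.38 (SE 0.52), with an edgeR adjusted p of 0.512 for both. The values below 0 included Gabra2 with -1.35 (SE 0.56), Glrb with -1.12 (SE 0.47) and Gabra5 with -1.15 (SE 0.49) on the log2 scale, with edgeR adjusted p-values of 0.512 to 0.513. Without FT replicate 2 Grin3b was at 1.08, and in the 9 libraries at 0.395. Gabra2 was at -0.98 and -0.39 in the same fits, and Gabra5 at -1.17 and -0.80. In the 9 libraries 6 had an unadjusted p under 0.05, against 8.38% of all genes, among them Gabrd, higher at 1.21, and Glrb, Gabrb2, Grm8 and Htr3a, lower at -0.77, -0.91, -0.69 and -0.50. The groups did not overlap for 12 of 56 (21.4%), against 17.6% of all genes: Gabrd and Grik3 were higher in FT, and the lower ones included Gabra2, Gabra4, Glrb, Grik4, Grin1, Grm8, Chrm4, Htr3b and Htr5b. FT versus MT and FT versus FN share the FT libraries, and FN versus MN and MT versus MN the MN libraries, so agreement between them is not independent.

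Whether the tumor effect differed between the sexes was tested as the difference between FT versus FN and MT versus MN over all 12 libraries. No gene of the table passed (0%) with edgeR, nor did a receptor gene with DESeq2 or limma-voom, and 3 of 58 receptor genes (5.17%) had an unadjusted p under 0.05, against 1.47% of all genes. These were Grin3b, with a difference of 2.92 on the log2 scale (SE 1.25), Htr1f with 2.27 (SE 0.92) and Gabrd with 1.64 (SE 0.62), each with an edgeR adjusted p of 1.00. In the 9 libraries 3 had an unadjusted p under 0.05, against 5.15% of all genes. Gabrd was among them at 1.62 (SE 0.59, edgeR adjusted p = 0.918), while Grin3b and Htr1f were at 0.64 and 0.52. The others were Grin3a at 1.05 (SE 0.32) and Grm4 at 0.81 (SE 0.22), which had been lower in MT than in MN and was higher in the remaining FT library than in the FN libraries.

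**Figure D4:**
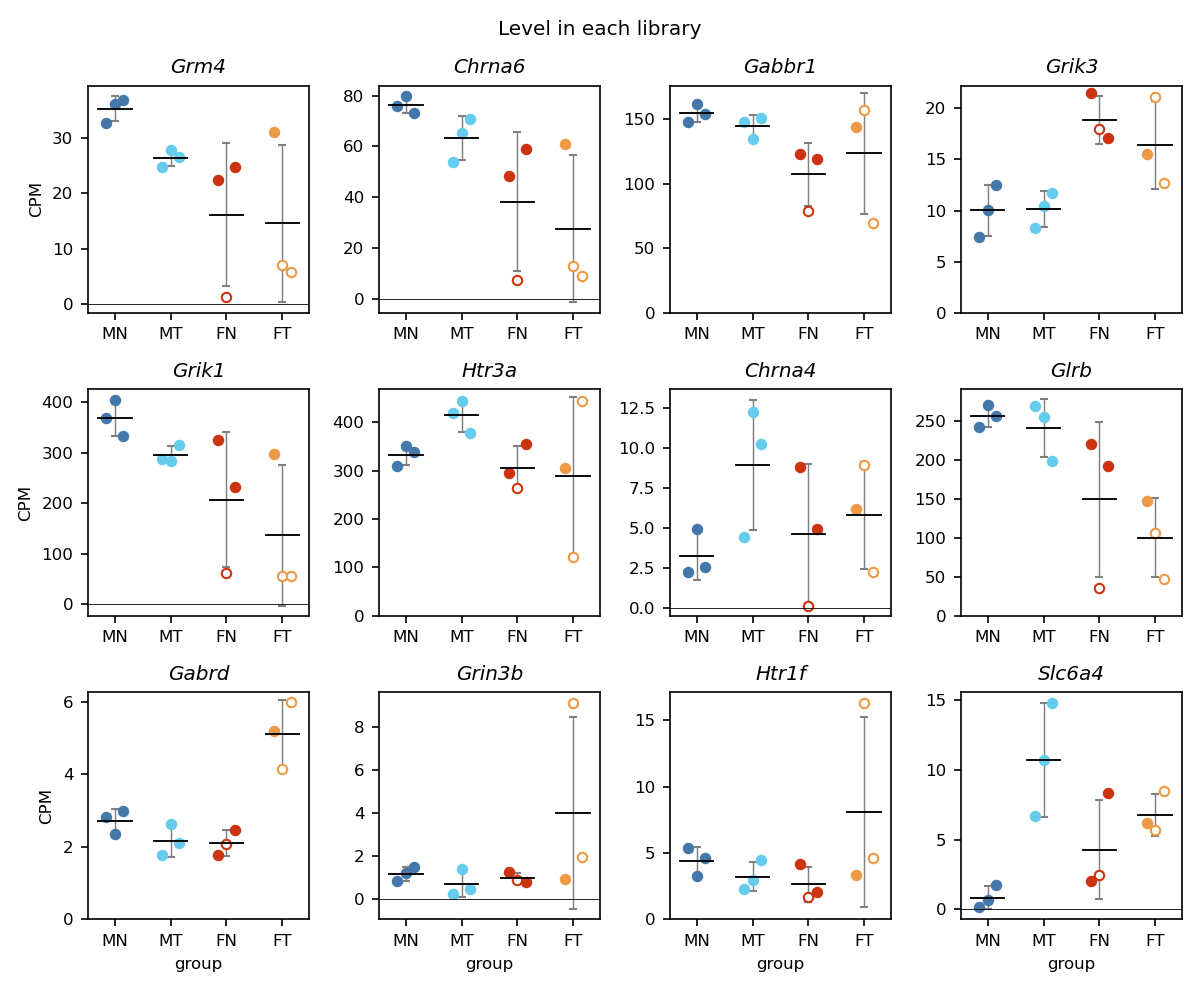
CPM in each library of 11 receptor genes and of the serotonin transporter Slc6a4, by group; FN 2, FT 2 and FT 3 are open, and bars give the mean and SD of the 3 libraries. Grik3 is higher in every FN library than in MN, Grm4 and Grik1 are lower in MT than in MN, Gabrd is highest in FT, and the FT means of Grin3b and Htr1f are set by 1 open point.

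The genes that assemble, anchor and traffic these receptors, and those that make, load and clear their ligands, were taken as separate lists. Of 44 auxiliary and scaffold genes 42 were tested, or 38 without the sex chromosomes. None passed an adjusted p of 0.05 in any of the 5 comparisons. In MN the GABA-A trafficking relative Gabarapl1 averaged 619.7 RPKM, the nicotinic modulator Lynx1 209 RPKM, the fusion factor Nsf 73.1 RPKM, the GABA-B auxiliary subunit Kctd16 128 RPKM and the gephyrin gene Gphn 15.8 RPKM. At an unadjusted p under 0.05 there were 0 of 42 in MT versus MN, 1 each in FT versus FN (Shank1) and FN versus MN (Dlg2), 2 in FT versus MT (Rapsn and Shank1) and 1 for the difference between the tumor effects (Shank1), against 6.79, 1.3, 5.93, 9.58 and 1.47% of all genes in the order MT versus MN, FT versus FN, FN versus MN, FT versus MT and the difference. Dlg2, a synaptic scaffold, was at 53.4, 66.7 and 56.0 CPM in MN, 63.4, 53.8 and 38.0 in MT, 33.1, 15.1 and 40.1 in FN and 42.9, 22.6 and 16.7 in FT, and its log2 fold change in FN versus MN was -0.96 (SE 0.31, edgeR adjusted p = 0.634). With the 9 libraries 4 of 38 scaffold genes had an edgeR unadjusted p under 0.05 in FN versus MN, against 15.5% of all genes. Nsf, Dlg2 and Kctd8 were lower in FN and Homer3 was higher. In MT versus MN there were 0 of 42, against 7.37%. Shank1, a postsynaptic scaffold, was at 6.89, 6.16 and 5.85 CPM in MN, 5.91, 4.86 and 2.10 in MT, 4.53, 1.70 and 4.11 in FN and 6.45, 31.4 and 4.46 in FT, and its difference in FT versus FN was 2.28 (SE 0.82, edgeR adjusted p = 1.00). FT replicate 2 was the highest library for it, and with the 9 libraries Shank1 had no unadjusted p under 0.05 in any comparison. Rapsn, which clusters nicotinic receptors at the neuromuscular junction, was at 8.01, 6.16 and 7.80 CPM in MN, 5.91, 8.20 and 7.28 in MT, 7.67, 23.2 and 8.63 in FN and 10.0, 71.2 and 13.2 in FT, with 2.47 in FT versus MT (SE 0.80, edgeR adjusted p = 0.512). It too was highest in FT replicate 2 and had no unadjusted p under 0.05 with the 9 libraries.

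Of 33 transmitter genes 24 were tested, or 22 without the sex chromosomes, and none passed the adjustment in the 5 comparisons. The vesicular glutamate transporter Slc17a6 was at 445, 449 and 437 CPM in MN, 386, 452 and 387 in MT, 376, 145 and 430.4 in FN and 369, 240.4 and 134 in FT. By contrast the vesicular GABA transporter Slc32a1, the choline acetyltransferase gene Chat and the vesicular acetylcholine transporter Slc18a3 had no count in any library, and Gad2 averaged at most 0.119 CPM in a group. Gad1 was low but passed the filter, at means of 1.33 CPM in MN, 1.72 in MT, 1.48 in FN and 0.601 in FT. The chloride importer Slc12a2, at 46.5, 39.6 and 41.7 CPM in MN, 42.1, 48.1 and 61.0 in MT, 64.7, 56.8 and 60.8 in FN and 35.1, 116 and 50.3 in FT, averaged 6.53 RPKM in MN, against 0.177 RPKM for the exporter Slc12a5. The serotonin transporter Slc6a4, which clears the ligand of Htr3a and Htr4, had the largest tumor difference of the list in males: it was at 0.141, 0.672 and 1.72 CPM in MN, 6.67, 10.7 and 14.8 in MT, 2.01, 2.48 and 8.36 in FN and 6.17, 5.66 and 8.51 in FT. All MT libraries were above all MN libraries, with a log2 fold change of 3.60 (SE 0.53, edgeR adjusted p = 0.0703), which missed the threshold. MN replicate 1, at 0.141 CPM, was under the limit of 3 counts (0.336 to 0.653 CPM), so the size of differences from MN carries wide counting error. In FN versus MN it was 2.34 (SE 0.84, edgeR adjusted p = 0.634), and MN, the group lowest in it, is shared by both comparisons. The difference between the tumor effects in the sexes was -2.84 (SE 0.93, edgeR adjusted p = 1.00). Also at an unadjusted p under 0.05 were Slc12a2 and Slc17a7 in FN versus MN, at 0.62 (SE 0.23) and -0.71 (SE 0.28), and Slc18a2, the vesicular monoamine transporter, in FT versus MT at -1.35 (SE 0.47). The glutaminase gene Gls2 had 1.79 in FT versus FN (SE 0.75) and 2.09 for the difference between the tumor effects (SE 0.90). It was at 14.2, 17.0 and 19.5 CPM in MN, 19.0, 11.5 and 10.2 in MT, 9.68, 4.96 and 14.8 in FN and 10.3, 60.1 and 14.4 in FT, highest in FT replicate 2, and had no unadjusted p under 0.05 with the 9 libraries. In all, 1, 1, 3, 1 and 2 of the transmitter genes had an unadjusted p under 0.05 in the 5 comparisons, in the same order and against the same shares of all genes. With the 9 libraries 7 of 22 had an edgeR unadjusted p under 0.05 in FN versus MN, against 15.5% of all genes. Of these 4 were higher in FN, Slc12a2 by 0.51 among them, and 3 lower. With FT replicate 1 as the only FT library, Slc12a2 was at -0.83 in FT versus FN and -1.09 for the difference between tumor effects. With all libraries its mean was 67.0 CPM in FT and 60.8 in FN, FT replicate 2 being the highest, so the direction depends on the libraries kept.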

How the data were processed

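Lingual TG neurons were sorted and sequenced as 12 libraries by SMART-seq2, which keeps no strand, as 50-base single reads. Per the submitters' processing notes and the study's methods, CASAVA 1.8.2, TopHat2, SAMtools and HTSeq were used with mm9, and the deposited values are raw read counts per gene symbol. The gene annotation, strand setting and other versions are not given in the sources used here. The 5 summary rows that name no gene held 76.3 to 88.8% of all entries and were left out. CPM were computed over 22609 genes, and RPKM with exon lengths from GENCODE M1 (mm9), which listed all 87 receptor genes and 95.7% of symbols.

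Groups came from the labels. Genes kept by filterByExpr (minimum count 10, minimum total 15) over all 12 libraries, 13835, were tested with edgeR 4.0.16 (quasi-likelihood, TMM) on the libraries of the groups compared, and on all 12 for the difference between tumor effects. For comparisons between sexes the X- and Y-linked genes were dropped, and 13360 remained. Adjusted p-values are Benjamini-Hochberg over all genes tested, in 5 comparisons. The scripts were tested on simulated data. Alternatives were DESeq2 1.42.0, limma-voom 3.58.1 with sample weights, DESeq2 size factors, no filter, fits of 4 groups over 12, 10 or 9 libraries, a replicate block, and each library left out. The 9 lack FN replicate 2, FT replicate 2 and FT replicate 3, and the 10 lack FN replicate 2 and FT replicate 2.

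The receptor genes, the other lists, the comparisons and the 9-library fit were chosen with earlier results of these data known. Values by library are given for up to 3 genes of each family with the highest mean RPKM in MN that passed the filter, and for up to 5 with the lowest unadjusted p under 0.05 in a comparison, and other genes by range. A few receptor genes are not reported here by name, in text or figures, although counts, medians and family sums include them. List genes are named by the same p rule, up to 4 in a comparison, while the list genes whose levels are given beside them were chosen after their values were seen. A limit of 3 counts covers counting error only, and p-values cover only the spread between these pooled libraries.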

Additional observations from a re-analysis of the deposited data

How the results depend on the processing

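The adjusted counts of receptor genes stayed at 0 under every alternative run in both tumor comparisons, in the sex comparison with tumors and for the difference between tumor effects. In FN versus MN the count of 0 became 5 with limma-voom and sample weights, against 963 of all 13360 genes. It was 0 to 4 with a library left out, the 4 being without FN replicate 2, against 735 of all genes. Unadjusted counts moved more, and those over all genes moved too. In MT versus MN the 5 genes became 0 with the spread of 12 libraries and 1 with that of 10. They became 4 to 8 with a library left out (8 without MT replicate 3). Over all 13835 genes the 940 became 59 with 12 libraries, 314 with 10 and 1558 without MT replicate 3. In FT versus FN the 2 became 7 with 10 libraries, where over all 13835 genes the 180 became 2036. With a library left out they became 0 to 6. There were 6 without FT replicate 1 (757 of all genes) and 1 without FN replicate 1 or FT replicate 2 (139 and 43). None was left without FN replicate 2 or 3 (455 and 121). In FN versus MN the 1 became 15 with 9 libraries, 2 with 10, 4 with DESeq2 and 21 with limma-voom. Over all 13360 genes the 792 became 2069, 806, 1177 and 3013 in these fits. The 1 became 2 with DESeq2 size factors (792 of all genes) and 2 without the filter (948 of 16880). With a library left out it became 1 to 18. Without FN replicate 2 there were 18 (2705 of all genes), and leaving out FN replicate 3 gave 4 (1508). FN replicate 1 gave 3 (1151), and MN replicate 1 or 2 gave 2 (326 and 252). In FT versus MT the 6 became 11 with 10 libraries, where over all 13360 genes the 1280 became 3012. With a library left out they became 0 to 18. There were 18 without FT replicate 1 (3836 of all genes), 0 without MT replicate 1 (590) and 1 without MT replicate 2 or 3 (465 and 669). For the difference between tumor effects the 3 became 1 to 8 with a library left out. There were 8 without FT replicate 1, where over all 13835 genes the 203 became 1111. There was 1 without MT replicate 1, FN replicate 3 or FT replicate 2 (172, 167 and 167 of all genes). Fits with 10 or 9 libraries, or with 1 left out, hold fewer samples, and the cause of the other shifts was not tested. Of 253 values of 17 gene differences under the alternatives, 168 kept their direction and side of an unadjusted p of 0.05, 84 kept the direction only, and 1 reversed, Grin3b in FT versus FN, at -0.11 with 9 libraries against 2.18.

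The deviations of same-numbered libraries from their group means correlated at -0.352 to 0.571, both ends of the range being pairs of FN and FT. Libraries of unlike number were not compared, so these values cannot tell whether replicate numbers pair the samples. With a replicate block no receptor gene passed the adjustment, and the unadjusted counts were 5 in MT versus MN, 0 in FT versus FN, 1 in FN versus MN, 8 in FT versus MT and 3 for the difference between tumor effects. Depth limits the low genes: 3 counts are 0.336 to 0.653 CPM, so the 19 genes never above it, and the muscarinic and Grin3b values near it, carry wide counting error.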
